A study of Mus musculus with 6 samples.

Results

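A set of 10 genes of neutrophil granules was followed in RNA sequencing of sorted mouse lung interstitial macrophages, out of 21965 genes in the deposited count table. They were Prtn3, Mpo, Elane and Ctsg of the primary granules, the progenitor membrane protein gene Ms4a3, Camp, Ngp, Ltf and Lcn2 of the specific granules, and the surface protein gene Cd177. All 10 were found by Ensembl identifier. The set was chosen by measured values of these libraries, the higher Prtn3 and Cd177 counts after WGP, so the WGP against PBS values of its members, and whether they passed the threshold used for all genes, are given as a description and support nothing. WGP is the label of a β-glucan preparation, a glucose polymer of yeast cell walls used to induce trained immunity. The treated mice were C57Bl/6, 6 to 8 weeks old at treatment, and received 1 mg of WGP into the peritoneum, and the control mice of the same strain and age received phosphate-buffered saline (PBS) by the same route. Treatment is given as lasting 6 days, with lungs taken on day 7. Each group had 3 libraries, and the labels name neither the sorting antibodies nor the number of mice behind a library, so p-values reflect how far libraries of a group differ, and part of that variation may be technical.

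Neutrophils pack their granules in a fixed order while they mature in the bone marrow. Myeloperoxidase and the serine proteases of the primary (azurophil) granules are transcribed at the promyelocyte stage, the proteins of the specific granules at the following myelocyte and metamyelocyte stages, and most of these transcripts decline before the cell enters the blood. Monocytes arise from related progenitors and hold some of the primary granule proteins, and Ms4a3 marks progenitors shared by granulocytes and monocytes. S100a8 and S100a9, the subunits of calprotectin, remain abundant in mature neutrophils and are also made by monocytes.

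Totals ran from 18254678 to 20346517 counts per library. Macrophage transcripts were abundant in every library, and Csf1r, which encodes the colony-stimulating factor 1 receptor, had 52832 to 55713 counts in WGP libraries and 43467 to 54418 counts in PBS libraries. Levels are given in CPM (counts per 1000000 of the TMM-scaled library total). Epx, which encodes eosinophil peroxidase, was at 0 counts in all 6 libraries, but other eosinophil markers had counts. The eosinophil list summed to 1.57 to 2.69 CPM in WGP libraries and 0.437 to 5.27 CPM in PBS libraries. Alveolar macrophage markers summed to 1291 to 1618 CPM in WGP libraries and 4986 to 7528 CPM in PBS libraries. Epithelial markers summed to 12.4 to 86.4 CPM in WGP libraries and 379 to 769 CPM in PBS libraries. Interstitial macrophage markers summed to 7234 to 8375 CPM in WGP libraries and 8866 to 9921 CPM in PBS libraries. Of the 15 tested, edgeR called 3 higher, Csf1r among them, and 4 lower, and 8 did not pass. Over all genes tested 15.2% rose and 15.7% fell. Mertk, 1 of the 4 lower, averaged 20.6 CPM after WGP and 166 CPM after PBS. The 4 Y-linked genes Ddx3y, Uty, Kdm5d and Eif2s3y summed to 205 to 227 CPM in WGP libraries and to 112, 179 and 9.79 CPM in PBS replicates 1, 2 and 3. PBS replicate 3 thus lay far below every other library in Y-linked transcripts. It is also the PBS library apart from its group for Camp, Ngp and Ltf, and a link between the 2 was not tested. The libraries also differed in neutrophil transcripts within each group. S100a8 and S100a9 together stood at 461, 855 and 1196 CPM in WGP replicates 1, 2 and 3, against 797, 1225 and 398 CPM in PBS replicates 1, 2 and 3. WGP replicate 1 and PBS replicate 3 were thus the low libraries of their groups.

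The granule genes did not move together. Prtn3 and Cd177 were higher in every WGP library than in any PBS library, which held for 23.2% of all genes tested. Ngp was lower in every WGP library, which held for 24.9% of all genes tested, and the other members overlapped between the groups. In the edgeR fit over all genes 8 of the 10 members had enough counts to be tested, and 2 of them, Prtn3 and Cd177, were past the threshold on the higher side, where 15.2% of all 12305 genes tested were. Nothing is read from that count, since the higher levels of these genes chose the set. On the lower side edgeR called 0 of the 8, where 15.7% of all genes tested were called. Ngp alone had an unadjusted p under 0.05 on that side, DESeq2 called 1 member lower (Ngp), and limma-voom called 0. The median log2 fold change (WGP over PBS) of the 8 was -0.94, beside -0.02 over all genes tested. In bulk libraries, fewer cells of a type and less RNA per cell cannot be told apart.

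**Figure D1:**
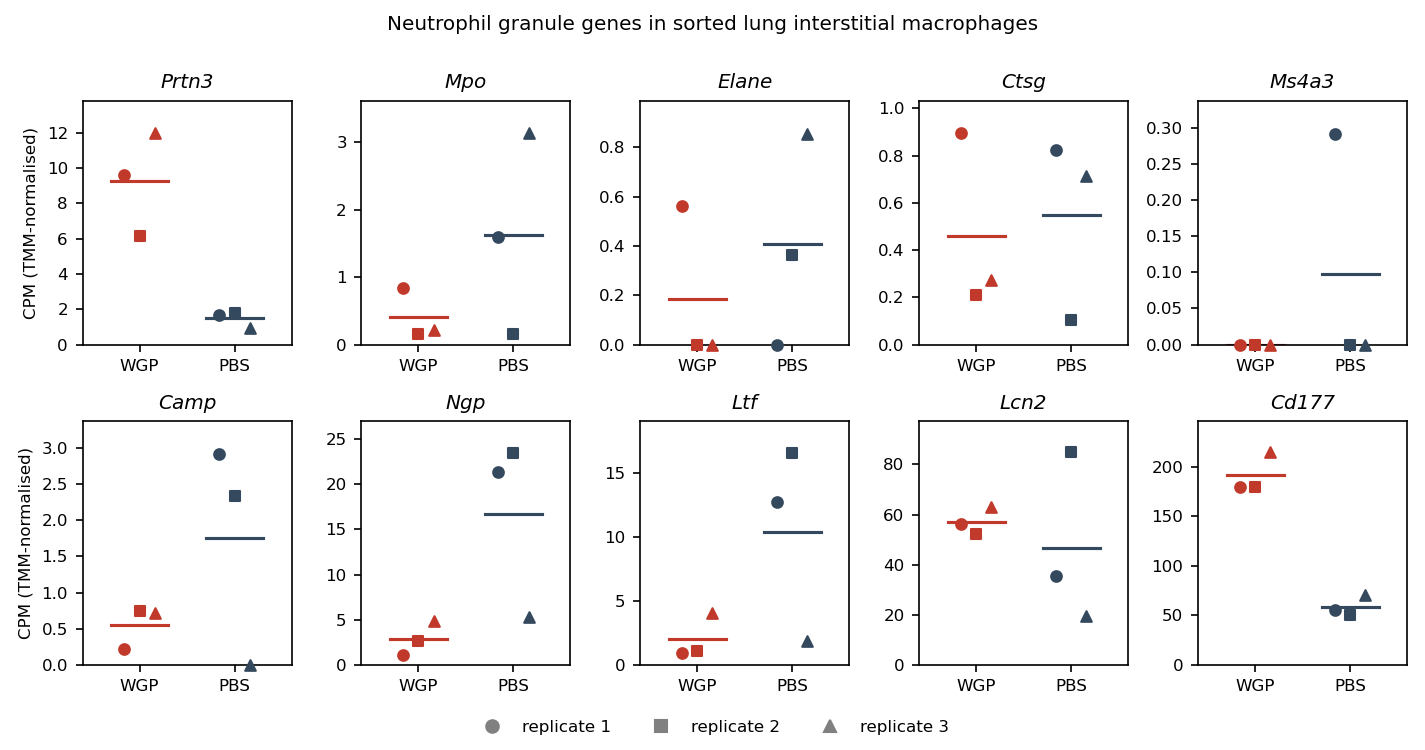
CPM (vertical axis, from 0, a separate scale for each gene) of the 10 granule genes in each of 3 WGP and 3 PBS libraries; points are libraries, with the symbol giving the replicate, and lines are group means. Prtn3 (6.13 to 12.0 CPM after WGP, 0.950 to 1.82 after PBS) and Cd177 (179.9 to 215 and 49.9 to 70.3) have no overlap, and Camp, Ngp and Ltf are high in PBS replicates 1 and 2 alone.

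Prtn3 encodes proteinase 3, a serine protease of primary granules. It had 171, 116 and 219 counts in WGP replicates 1, 2 and 3 (9.60, 6.13 and 12.0 CPM), against 35, 35 and 20 counts in PBS replicates 1, 2 and 3 (1.70, 1.82 and 0.950 CPM). The lowest WGP library thus lay above the highest PBS library. The means were 9.24 ± 2.95 CPM after WGP and 1.49 ± 0.47 CPM after PBS (SD, n = 3 each), a ratio of 6.20 and a log2 fold change of 2.63 ± 0.36 (SE).

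Elane, the gene of neutrophil elastase, lies 3073 bases downstream of Prtn3 on chromosome 10, on the same strand (ENSMUSG00000020125, 79886247 to 79888215 in GRCm38, and ENSMUSG00000057729, 79874476 to 79883174, for Prtn3). It had 10, 0 and 0 counts in WGP replicates 1, 2 and 3, against 0, 7 and 18 counts in PBS replicates 1, 2 and 3. A library with no count has an upper limit of 3 counts, or 0.146 to 0.164 CPM in the 3 libraries concerned, and Elane had too few counts for the fit. So Prtn3 stood at 116 to 219 counts in the WGP libraries, in which its neighbour had 0 to 10. Cfd, the complement factor D gene that follows Elane, had 5, 0 and 6 counts after WGP and 0, 4 and 0 counts after PBS.

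The 250 bases before the RefSeq start of each of these 2 protease genes are shown because they hold the same short runs in the same order, although the genes differed in level. Capitals mark GAGGAAGT (a purine-rich run of the PU.1 type), CAACGG (Myb type) and TATAA (TATA type), searched on both strands; the windows are chr10:79879417-79879666, plus strand, and chr10:79886062-79886311, plus strand (RefSeq, GRCm38.p6), and no 2 of the runs overlap.
Prtn3: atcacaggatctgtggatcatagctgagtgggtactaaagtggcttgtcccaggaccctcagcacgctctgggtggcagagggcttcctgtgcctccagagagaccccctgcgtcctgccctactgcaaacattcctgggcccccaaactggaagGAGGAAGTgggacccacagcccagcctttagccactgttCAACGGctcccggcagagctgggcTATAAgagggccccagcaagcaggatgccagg
Elane: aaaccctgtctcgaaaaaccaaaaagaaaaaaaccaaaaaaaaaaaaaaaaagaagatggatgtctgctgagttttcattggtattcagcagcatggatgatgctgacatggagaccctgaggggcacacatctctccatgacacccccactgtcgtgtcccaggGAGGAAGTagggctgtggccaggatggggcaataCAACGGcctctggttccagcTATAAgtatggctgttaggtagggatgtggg
The first letters of the runs stand 95, 56 and 32 bases before the RefSeq start in Prtn3 and 85, 51 and 31 bases before it in Elane. GENCODE M21 starts lie farther upstream. Elane starts at 79886247, inside its window, and the coding transcript Prtn3-201 starts 53 bases before the RefSeq start. TATAA in both genes, and CAACGG in Elane, thus lie downstream of these GENCODE starts. GAGGAAGT occurred in 2.44%, CAACGG in 4.05% and TATAA in 22.8% of 32851 windows of this length, and all 3 occurred together in 7 of them (0.0213%). The Mpo window held GAGGAAGT, and those of Ctsg and Cd177 held TATAA. A match of letters is a description of the window and was not tested as a binding site.

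The Prtn3 count has a limit of its own. GENCODE M21 gives the gene a non-coding transcript, Prtn3-202, which starts 5191 bases before the RefSeq start, and the exons of Prtn3 share 159 bases (9.2% of their length) with those of Plppr3 on the other strand. Plppr3, which encodes a lipid phosphatase-related membrane protein, had 235, 106 and 174 counts in WGP replicates 1, 2 and 3, against 29, 53 and 38 counts in PBS replicates 1, 2 and 3, and rose with a log2 fold change of 2.25 ± 0.38 (edgeR adjusted p = 0.0014). The strand setting of the counting is not given in the sources used here, so reads of the shared bases cannot be assigned to a gene, and counts per gene do not say which Prtn3 transcript was present. Farther out, Ptbp1, the splicing regulator gene upstream, averaged 288 ± 6.59 CPM after WGP and 270 ± 9.25 CPM after PBS (log2 fold change 0.10 ± 0.07, adjusted p = 0.30). Med16, a Mediator subunit gene downstream, rose by a smaller log2 fold change of 0.59 ± 0.15 (adjusted p = 0.014), a call lost without WGP replicate 3 (0.064) or PBS replicate 1 (0.053). Arid3a (0.66 ± 0.11, adjusted p = 0.0014) and R3hdm4 (0.26 ± 0.09, adjusted p = 0.047), also downstream, rose too. Gm26602 (1.19 ± 0.70, adjusted p = 0.23) and Kiss1r (1.31 ± 0.76, adjusted p = 0.22) did not pass. These neighbours were chosen after values were seen.

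**Figure D2:**
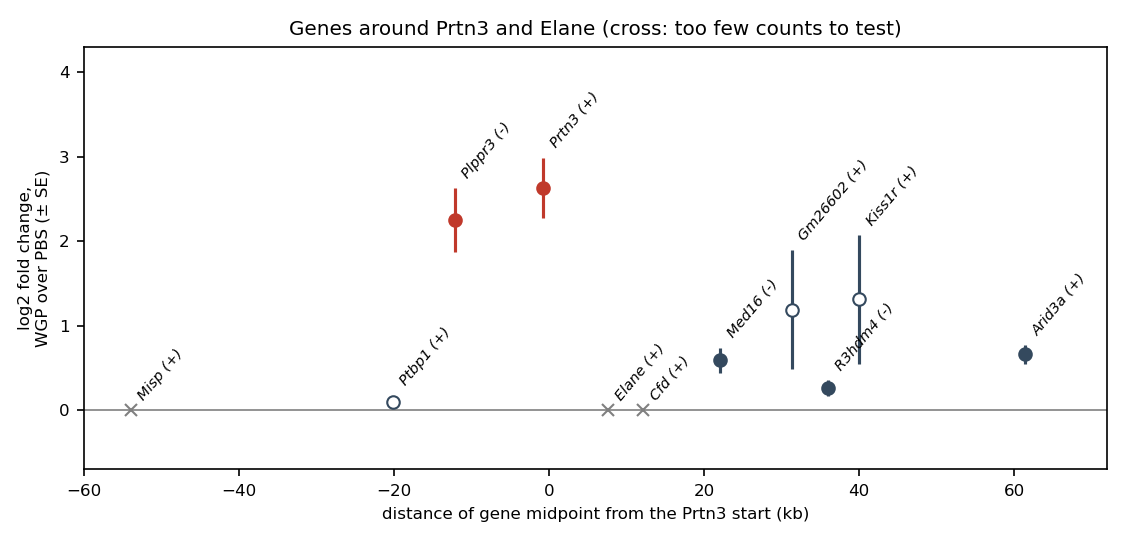
Log2 fold change, WGP over PBS, with its SE (vertical axis) of the genes around Prtn3 and Elane against the distance of each gene's midpoint from the Prtn3 start in kb (horizontal axis); signs give the strand, filled points passed the threshold and crosses mark genes with too few counts to test. Prtn3 (2.63) and Plppr3 (2.25) stand above the other genes drawn, and Elane, next to Prtn3, could not be tested.

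The other primary granule genes were near the limit of detection. Mpo, the gene of myeloperoxidase, which makes hypochlorous acid (ENSMUSG00000009350, chromosome 11, 87793581 to 87804413), had 15, 3 and 4 counts in WGP replicates 1, 2 and 3, against 33, 3 and 66 counts in PBS replicates 1, 2 and 3. Its log2 fold change of -2.00 ± 1.01 rested on PBS replicates 1 and 3, and the groups overlapped. Ctsg, the gene of cathepsin G, another serine protease (ENSMUSG00000040314, chromosome 14, 56099881 to 56102574), had 16, 4 and 5 counts after WGP and 17, 2 and 15 counts after PBS (log2 fold change -0.26 ± 0.96). Ms4a3 (ENSMUSG00000024681, chromosome 19, 11629496 to 11640851) had no count in any WGP library and 6, 0 and 0 counts in PBS replicates 1, 2 and 3. Mpo, Elane and Ctsg together came to 41, 7 and 9 counts in the WGP libraries and 50, 12 and 99 counts in the PBS libraries. These 3 genes together were highest in WGP replicate 1 and PBS replicate 3, whereas Prtn3 had most counts in WGP replicate 3 and fewest, among the PBS libraries, in PBS replicate 3.

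Camp, Ngp and Ltf of the specific granules were lower on average after WGP, with PBS replicate 3 apart from the other PBS libraries. Ngp, which encodes a neutrophilic granule protein related to cathelicidins (ENSMUSG00000032484, chromosome 9, 110419747 to 110423012), had 19, 50 and 88 counts in WGP replicates 1, 2 and 3, against 439, 451 and 111 counts in PBS replicates 1, 2 and 3. In CPM these were 1.07, 2.64 and 4.82 after WGP and 21.3, 23.4 and 5.27 after PBS, so that WGP replicate 3 and PBS replicate 3 nearly met. Its log2 fold change was -2.55 ± 0.79. Ltf, the gene of the iron-binding protein lactoferrin (ENSMUSG00000032496, chromosome 9, 111019271 to 111042767), had 17, 21 and 74 counts after WGP and 261, 318 and 39 counts after PBS. PBS replicate 3 lay within the WGP range, and the log2 fold change was -2.34 ± 1.00. Camp, the gene of the antimicrobial peptide cathelicidin (ENSMUSG00000038357, chromosome 9, 109847379 to 109849617), had 4, 14 and 13 counts after WGP and 60, 45 and 0 counts after PBS. Its log2 fold change was -1.63 ± 1.18 with edgeR and 0.01 ± 1.71 with limma-voom, and PBS replicate 3 was the lowest of the 6 libraries. Without PBS replicate 3 the fold changes were -2.98 ± 0.53 for Ngp, -2.84 ± 0.61 for Ltf and -2.22 ± 0.74 for Camp, all 3 past the threshold. With Prtn3 and Cd177, whose higher levels chose the set, 5 members then passed in place of 2. In that fit 3412 of 12527 genes tested passed, 1736 on the higher side and 1676 on the lower side. Without robust estimation Ngp also passed, as it did with DESeq2.

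The windows before the starts of Ngp and Ltf are shown for the run they share, with TTGCNNAA (C/EBP type, searched on both strands) in capitals; they are chr9:110419558-110419807, plus strand, and chr9:111019042-111019291, plus strand (RefSeq, GRCm38.p6).
Ngp: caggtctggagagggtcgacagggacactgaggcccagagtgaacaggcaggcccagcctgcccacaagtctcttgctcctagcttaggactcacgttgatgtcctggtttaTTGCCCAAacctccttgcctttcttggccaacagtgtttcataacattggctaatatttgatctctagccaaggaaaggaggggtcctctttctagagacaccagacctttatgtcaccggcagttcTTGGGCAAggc
Ltf: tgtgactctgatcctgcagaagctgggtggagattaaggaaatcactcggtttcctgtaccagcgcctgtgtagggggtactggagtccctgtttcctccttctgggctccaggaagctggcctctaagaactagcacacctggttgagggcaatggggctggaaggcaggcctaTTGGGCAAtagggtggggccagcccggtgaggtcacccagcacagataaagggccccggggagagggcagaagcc
Ngp held the run at 2 places and Ltf at 1, and the Lcn2 window held it too, whereas the letters were not in the Camp window. Of all 32851 windows, 9.56% held at least 1 match. The GENCODE M21 starts of Ngp (110419747) and Ltf (111019271) lie inside the windows shown.

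Lcn2 is the gene of lipocalin 2, which binds bacterial siderophores and is also made by epithelial cells and stimulated macrophages (ENSMUSG00000026822, chromosome 2, 32384633 to 32388252). Unlike Camp, Ngp and Ltf, it was not lower on average after WGP, though PBS replicate 3 was again the lowest PBS library. It had 56.4, 52.2 and 62.8 CPM in WGP replicates 1, 2 and 3, against 35.5, 85.1 and 19.6 CPM in PBS replicates 1, 2 and 3. The WGP libraries were close together, the PBS libraries spread on both sides of them, and the log2 fold change was 0.29 ± 0.59. Without PBS replicate 2 it was 1.05 ± 0.25 and past the threshold.

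Cd177 had the highest level of the members in every WGP library, whereas Lcn2 was higher in PBS replicate 2. Its product is a surface glycoprotein that in human neutrophils holds proteinase 3 on the cell membrane and binds PECAM-1 of the endothelium (ENSMUSG00000052212, chromosome 7, 24743983 to 24760311). It had 179.9, 180.0 and 215 CPM in WGP replicates 1, 2 and 3, against 55.1, 49.9 and 70.3 CPM in PBS replicates 1, 2 and 3. The group ranges were far apart compared with their width. The means were 192 ± 20.4 CPM after WGP and 58.4 ± 10.6 CPM after PBS (SD, n = 3 each), a ratio of 3.28 and a log2 fold change of 1.71 ± 0.13 (SE). Of its partners, Itgam, the integrin chain of complement receptor 3, rose to 373 ± 30.0 CPM after WGP, against 236 ± 4.60 CPM after PBS (log2 fold change 0.66 ± 0.08, adjusted p = 0.00015). Pecam1 fell to 49.7 ± 7.34 CPM after WGP, against 136 ± 18.2 CPM after PBS (log2 fold change -1.45 ± 0.13, adjusted p = 6.5e-05). Itgb2 did not pass (-0.02 ± 0.07, adjusted p = 0.87).

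Per kb of exon, the order of the members differed between the groups. After WGP, Cd177 stood first at 67.5 ± 7.18 CPM per kb, followed by Lcn2 at 21.8 ± 2.03 and Prtn3 at 5.33 ± 1.70, and then Ngp at 2.32 ± 1.54. Cd177 lay above Lcn2, and Lcn2 above Prtn3, by more than their SDs, whereas Prtn3 and Ngp lay within theirs. After PBS, Cd177 at 20.6 ± 3.74, Lcn2 at 17.8 ± 13.03 and Ngp at 13.6 ± 8.12 CPM per kb lay within each other's spread. Ltf followed at 2.999 ± 2.20, Camp at 2.31 ± 2.04 and Prtn3 at 0.860 ± 0.271 CPM per kb, again within their spread.

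Most neutrophil markers outside the granules did not pass the test. Of 16 tested genes of mature neutrophils 1 rose, 1 fell and 14 did not pass, with a median log2 fold change of -0.01, and 31.0% of all genes tested passed in either direction. Cxcr2, the receptor for neutrophil-attracting chemokines, averaged 92.8 ± 48.2 CPM after WGP and 118 ± 60.3 CPM after PBS (log2 fold change -0.34 ± 0.67, adjusted p = 0.75). S100a8 (0.05 ± 0.61, adjusted p = 0.96), S100a9 (0.06 ± 0.56, adjusted p = 0.95), Csf3r, the receptor for granulocyte colony-stimulating factor (0.38 ± 0.26, adjusted p = 0.34), and Retnlg (-0.30 ± 0.37, adjusted p = 0.59) did not pass either. Ly6g, the surface antigen used to sort mouse neutrophils, had 33, 30 and 60 counts in WGP libraries and 24, 63 and 24 counts in PBS libraries. Trem3 rose (0.47 ± 0.10, adjusted p = 0.0045), and Wfdc21 fell (-1.60 ± 0.33, adjusted p = 0.0051).

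Levels were also set against S100a8 and S100a9 in the same library, a description chosen after values were seen. On this scale 4 of the 10 granule genes did not overlap between the groups, and the other members did. Nothing is read from that count, since Prtn3 and Cd177 are in it and the share over all genes was not computed on this scale. In CPM, 23.2% of all genes tested were higher in every WGP library and 24.9% were lower. Per 1000 counts of S100a8 and S100a9, Ngp had 2.31, 3.09 and 4.03 counts in WGP replicates 1, 2 and 3. In PBS replicates 1, 2 and 3 it had 26.8, 19.1 and 13.3 counts. Ltf had 2.07, 1.30 and 3.39 counts in the WGP libraries, against 15.9, 13.5 and 4.66 counts in the PBS libraries. On this scale both genes were lower in every WGP library, PBS replicate 3 included. Prtn3 had 20.8, 7.16 and 10 counts per 1000 after WGP, against 2.13, 1.48 and 2.39 after PBS. Cd177 had 390, 211 and 180 after WGP, against 69.2, 40.7 and 177 after PBS. Here the lowest WGP and the highest PBS value of Cd177 nearly met, since PBS replicate 3 held little S100a8 and S100a9.

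**Figure D3:**
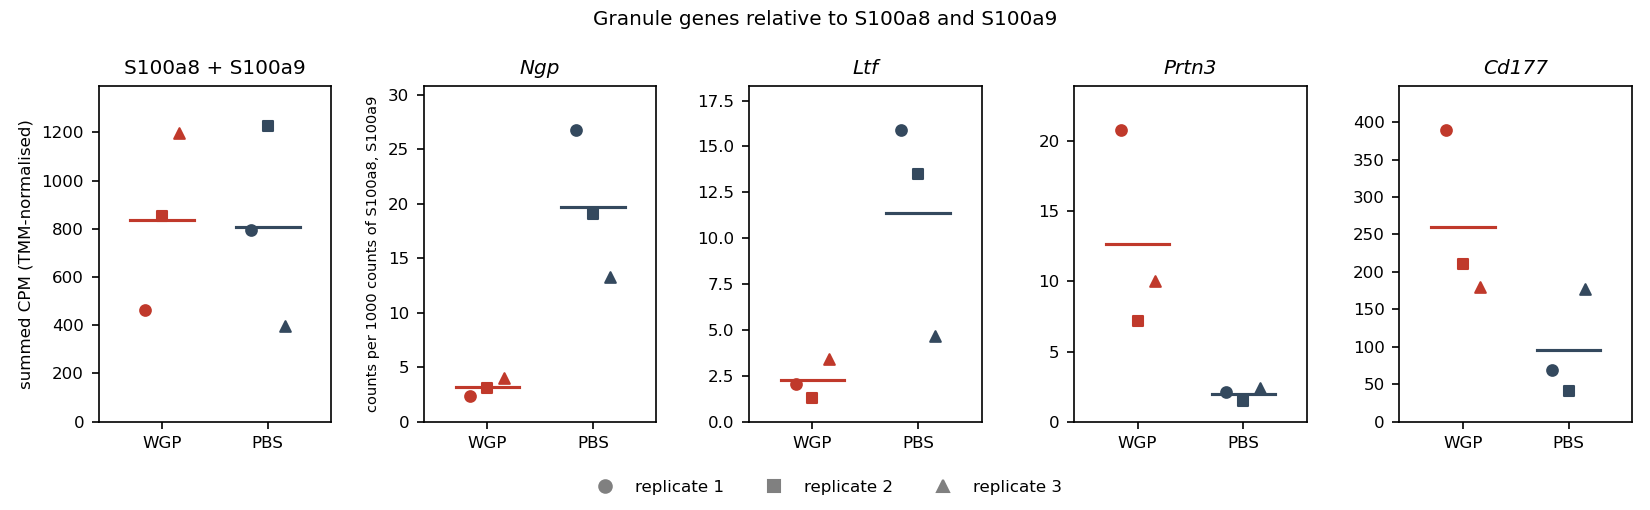
Left, summed CPM of S100a8 and S100a9 in each library; right, counts of Ngp, Ltf, Prtn3 and Cd177 per 1000 counts of S100a8 and S100a9 (vertical axes, from 0), with WGP left of PBS, points for libraries and lines for group means. The S100a8 and S100a9 sums overlap, Ngp (2.31 to 4.03 after WGP, 13.3 to 26.8 after PBS) and Ltf are lower in all WGP libraries, and Prtn3 and Cd177 are higher.

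Other granule proteins also went both ways. Of 15 tested genes of the specific and gelatinase granules 7 rose, 2 fell and 6 did not pass (median log2 fold change 0.22), where 15.2% of all genes tested rose and 15.7% fell. The 9 calls became 6 without PBS replicate 1 and 7 without WGP replicate 1, WGP replicate 3 or PBS replicate 2. Hp, the haptoglobin gene, rose to 789 ± 35.7 CPM after WGP, against 288 ± 57.2 CPM after PBS (log2 fold change 1.45 ± 0.13, adjusted p = 9.3e-05). Cybb, the catalytic subunit of the phagocyte oxidase (0.65 ± 0.07, adjusted p = 0.00014), Lyz2, the lysozyme of macrophages and neutrophils (0.55 ± 0.07, adjusted p = 0.00020), and Ltb4r1, a leukotriene B4 receptor (0.68 ± 0.11, adjusted p = 0.00091), rose too. Mmp8, the neutrophil collagenase gene, had 210, 165 and 151 CPM in WGP libraries, against 67.8, 106 and 60.5 CPM in PBS libraries (1.17 ± 0.25, adjusted p = 0.020), a call lost without PBS replicate 1 (0.077) or PBS replicate 3 (0.056). Fpr1, a receptor for bacterial formyl peptides, fell to 23.4 ± 7.94 CPM after WGP, against 99.5 ± 27.9 CPM after PBS (-2.08 ± 0.36, adjusted p = 0.012). Several of the genes that rose, among them Cybb and Lyz2, are expressed throughout the myeloid lineage.

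**Figure D4:**
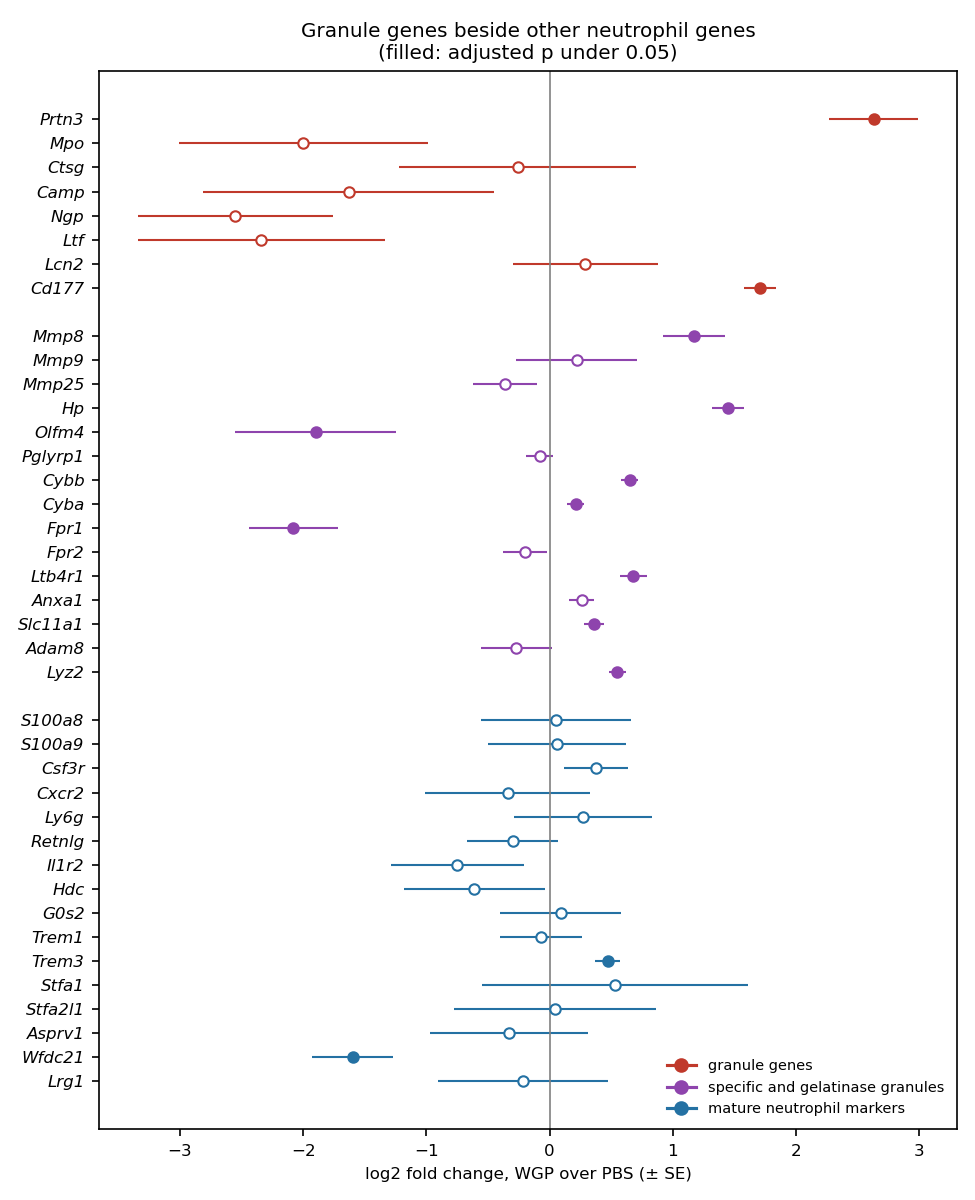
Log2 fold change, WGP over PBS, with its SE (horizontal axis) for the 8 granule genes tested, 15 other genes of specific and gelatinase granules and 16 mature neutrophil markers; filled points had an edgeR adjusted p under 0.05. Prtn3 (2.63) and Cd177 (1.71) lie to the right and Ngp (-2.55) and Ltf (-2.34) to the left, while most mature neutrophil markers lie near 0.

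A list of 7 other genes tied to primary granules held enzymes and inhibitors that act on the proteases as well as further granule proteins. Among its 6 members with enough counts edgeR called 0 higher and 1 lower, and 5 missed the threshold. Over all genes tested 15.2% rose and 15.7% fell, so the 1 lower call is near that share. Bpi was at 0 in all libraries. Ctsc, which encodes cathepsin C, the enzyme that trims the serine proteases to their active form, averaged 910 ± 109 CPM after WGP and 866 ± 45.9 CPM after PBS (log2 fold change 0.07 ± 0.09, adjusted p = 0.59). Serpinb1a, an inhibitor of elastase, cathepsin G and proteinase 3, had 20.3, 13.5 and 15.05 CPM in WGP libraries, against 47.8, 50.8 and 34.7 CPM in PBS libraries, and fell with a log2 fold change of -1.45 ± 0.19 (adjusted p = 0.00046). Fcnb, a ficolin gene of immature myeloid cells, had 6.34, 2.59 and 1.86 CPM in WGP libraries, against 1.21, 1.97 and 0.665 CPM in PBS libraries (1.48 ± 0.58, adjusted p = 0.077, and 0.043 with DESeq2).

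With all 6 libraries, progenitor and cell cycle genes fell or did not pass, and the counts depended on single libraries. Of 5 tested progenitor genes 3 fell (Kit, Cd34 and Sox4), with a median log2 fold change of -1.06, where 15.7% of all genes tested fell. The 3 calls became 0 without WGP replicate 3 or PBS replicate 3, 1 without WGP replicate 1 or PBS replicate 1 and 2 without WGP replicate 2. The stem cell factor receptor gene Kit had 2.08, 8.61 and 3.78 CPM in WGP libraries, against 17.4, 15.9 and 12.3 CPM in PBS libraries (-1.65 ± 0.48, adjusted p = 0.039), a call lost without WGP replicate 3 (0.13) or any 1 PBS library (0.070 to 0.11). Of 12 cell cycle genes 3 fell, beside the 15.7% of all genes, and 9 did not pass, among these the proliferation antigen gene Mki67 (-1.05 ± 0.51, adjusted p = 0.20), and the count that passed ran from 2 to 8 when single libraries were left out, with the lowest value without PBS replicate 1 and the highest without WGP replicate 2. Without WGP replicate 1 or PBS replicate 2 it was 5, and 1 of the 5 (Hmgb2) rose without WGP replicate 1. Of 10 transcription factors of granulocyte and monocyte development 2 rose and 3 fell, where 15.2% of all genes tested rose and 15.7% fell. Irf8, which favours monocytes over granulocytes in progenitors, rose to 343 ± 52.0 CPM after WGP, against 168 ± 26.5 CPM after PBS (1.03 ± 0.14, adjusted p = 0.0014). Spi1, the gene of PU.1, rose by a smaller step (0.32 ± 0.07, adjusted p = 0.0069), and Runx1 (-0.65 ± 0.11, adjusted p = 0.0023) and Cebpa (-0.53 ± 0.11, adjusted p = 0.0045) fell. Cebpe, which is needed for specific granules, had 97, 84 and 78 counts in WGP libraries and 42, 66 and 66 counts in PBS libraries (0.72 ± 0.33, adjusted p = 0.13). Gfi1, a repressor needed for granulocyte maturation, had 0, 49 and 16 counts after WGP and 25, 13 and 45 counts after PBS (-0.21 ± 1.07, adjusted p = 0.90).

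Most classical monocyte markers rose. Of 12 tested, 9 rose and 3 (Cd14, Clec4e and Thbs1) overlapped between the groups and did not pass (median log2 fold change 1.40), where 15.2% of all genes tested rose. The calls became 7 without PBS replicate 1. Their summed level was 14640 to 22620 CPM in WGP libraries and 7512 to 9151 CPM in PBS libraries. Ccr2, the chemokine receptor gene of classical monocytes, rose to 1031 ± 46.3 CPM after WGP, against 248 ± 48.3 CPM after PBS (log2 fold change 2.06 ± 0.13, adjusted p = 1.8e-05). Mast cell and basophil markers summed to 2.59 to 5.58 CPM in WGP libraries and 10.7 to 11.8 CPM in PBS libraries, with Fcer1a, Mcpt4 and Prss34 at 0 throughout. Gata2 alone made up most of the PBS sums, at 8.22 to 10.1 CPM, against 1.85 to 4.43 CPM in WGP libraries. Cma1 overlapped between the groups and did not pass (log2 fold change 0.06 ± 0.76, adjusted p = 0.96). The other genes of this list had too few counts for the fit. The part of these other cell types in the levels of the granule genes was not tested.

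The genes closest to Cd177 in pattern followed it within a small distance. Likeness was the root-mean-square distance between log2 CPM profiles over the 6 libraries, each centred on its own mean, among 11548 genes. Nearest to Cd177 were Lrrc20 (0.092), Nhsl2 (0.123), the cell cycle transcription factor gene E2f2 (0.134), Arhgef37 (0.137) and the kinase gene Ikbke (0.139). For Prtn3 the 4 nearest were farther off, namely the potassium channel gene Kcnq3 (0.333), Plppr3 (0.452), Lrrc29 (0.515) and Fam117a (0.558). The distance is not adjusted for counting noise, which is larger at low counts, so the distances of the 2 genes are not on a like footing. Prtn3 had 20 to 219 counts per library, against 961 to 3934 for Cd177. Kcnq3 had 39, 30 and 67 counts in WGP libraries and 7, 7 and 8 counts in PBS libraries. None of these genes was a member of the set.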

How the data were processed

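RNA sequencing counts of 6 libraries were analysed, 3 from WGP-treated and 3 from PBS-treated mice, with groups and replicate numbers from the sample titles. The counts per Ensembl gene were made by the authors and deposited without normalisation. The submitters' processing notes list FastQC 0.10.1, HTSeq 0.10.0, mm10 and GRCm38. Libraries were made from polyA RNA with a Universal Plus mRNA-Seq kit, per the labels' protocols. For the aligner, annotation and strand setting nothing is stated: not given in the sources used here. GENCODE M21 (GRCm38) supplied symbols, coordinates and exon lengths and matched 21939 of 21965 rows (99.9%). Promoter windows came from RefSeq (GRCm38.p6), where all 10 members matched.

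The 2 groups were compared by the two-sided quasi-likelihood test of edgeR 4.0.16 (R 4.3.3), after filterByExpr, TMM scaling and robust dispersion estimates. P-values of 12305 genes were adjusted by Benjamini-Hochberg, and 0.05 was the threshold. Each SE was the log2 fold change divided by √F. Library totals in CPM were TMM-scaled, log2 CPM used a prior count of 2, and the limit for a count of 0 is 3 counts and covers counting error only. Chi-square per degree of freedom between replicates was 13.5 to 24.8, so none was counted as a repeat. The test was tested on simulated data.

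The members and the marker lists were chosen with earlier results of these data known. Named were all members, up to 4 genes of each list by smallest p where they passed, some fixed markers of each cell type, genes whose exons overlap a member, and the 5 genes nearest in pattern to Prtn3 and to Cd177 with a mean of at least 1 CPM; not all of these are reported here. Alternatives were DESeq2 1.42.0, limma-voom (limma 3.58.1), other scalings and filters, fits without robust estimation, a replicate block and leaving out each library.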

Additional observations from a re-analysis of the deposited data

How the results depend on the processing

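Over 14 alternatives Prtn3 kept a log2 fold change of 2.38 to 2.86 and Cd177 one of 1.60 to 1.86, a description of genes chosen for this difference. Of 2274 refits of 163 single genes 2075 gave the same call, 109 lost it, 90 gained it and 0 reversed. A change of sign counted as the same call where neither fit passed the threshold. Such changes occurred, as in Camp (-2.22 to 0.01) and Ctsg (-1.16 to 0.15). Across the fits leaving out 1 library, the number of genes changed ran from 2491 (without PBS replicate 1) to 3717 (without WGP replicate 2), against 3809 with all libraries. The same fits gave 2 to 5 granule genes past the threshold, 1 to 2 primary granule companions, 0 to 3 progenitor markers and 2 to 8 cell cycle genes; the cause was not tested. The 5 granule genes and 2 companions were without PBS replicate 3. DESeq2 called 2 primary granule companions, in place of 1. The number of cell cycle genes that fell was 6 with library sizes alone, with no filter on low counts and with DESeq2, and 8 with limma-voom, in place of 3. Library sizes alone moved the median log2 fold change of all genes from -0.02 to -0.12, with 1236 genes that rose and 2460 that fell in place of 1874 and 1935. Same-numbered libraries did not deviate together (r of -0.06, -0.08 and -0.05 over genes), and the other pairs had r of -0.04 to 0.11. With 3 libraries in each group these values cannot exclude a pairing, and the main fit used none. With the replicate block 3185 genes and 2 granule genes passed, and Camp had a log2 fold change of -1.01. Depth limits Elane, Ms4a3, Mpo, Ctsg and Camp, whose levels lay near or below 1 CPM in most libraries.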
